A study of Mus musculus with 13 samples.

Results

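Damaged hepatocytes (dHeps) kept for 16 days in the 5-compound cocktail 5C were compared with dHeps kept in the same medium without ETC-1002. The libraries named 5C1 and 5C2 were set against those named 5C-E1 and 5C-E2, which are 4 of the 13 libraries of the study. The dHeps came from livers of wild-type mice injured with carbon tetrachloride (CCl4), were isolated by enzymatic perfusion and were cultured in serum-free hepatocyte maintenance medium. The 5C medium added GSK429286A (G, an inhibitor of the kinase ROCK), CID755673 (C, an inhibitor of protein kinase D), ETC-1002 (E), forskolin (F, an activator of adenylate cyclase) and Salidroside (S). The 5C-E cells received G, C, F and S, and the 2 DMSO libraries, dHeps given solvent alone, serve below as the background. Injury, isolation, medium and culture time were shared by all 3 groups, so no group stands for an uninjured liver. Bulk RNA-seq was measured, and it cannot tell fewer cells of a type from less RNA per cell.

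ETC-1002 (bempedoic acid) is a prodrug. In hepatocytes the very long chain acyl-CoA synthetase Slc27a2 turns it into its coenzyme A thioester, which inhibits ATP citrate lyase (Acly), the enzyme that makes cytosolic acetyl-CoA from citrate for fatty acid and sterol synthesis. The compound is also described as an activator of AMP-activated protein kinase (AMPK), and the study used it under that name. Hepatocytes in culture are known to lose the RNAs of their secreted proteins, cytochrome P450 enzymes and transporters, and the question of the comparison was what dropping ETC-1002 from the cocktail did to those and all other RNAs.

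The 4 libraries held 30672924 to 36360797 counts, within the 30195867 to 45491932 of all 13. They were compared gene by gene with edgeR over 19884 genes, p-values were adjusted for all of these, and a gene was called where the adjusted p was below 0.05 and the log2 fold change was beyond 1 in either direction. Levels are the deposited FPKM, which are per length and so may be set side by side between genes, and differences are log2 fold changes of counts with 5C-E over 5C. The study's methods describe replicates as biologically separate samples, though the labels do not say whether the 2 libraries of a group came from different animals. P-values set a difference against the spread between libraries of the same group, estimated over all 13 libraries and not only the 4 compared. The hepatocyte label was checked against 10 marker genes, whose summed level was 15935 and 15976 FPKM in 5C, 6982 and 6125 FPKM in 5C-E, and 16612 and 15248 FPKM in DMSO. By chi-square per degree of freedom the 2 5C-E libraries were less alike than the 2 5C libraries (28.9 against 14.1). By the standard deviation of the log2 differences between the 2 libraries they were not (0.368 against 0.378). Of the 260 genes called lower, 218 were lower in 5C-E2 than in 5C-E1. Log2 fold changes rose with the GC content of a gene (Spearman's rho 0.31 across genes, which are not independent), and the difference between 5C-E2 and 5C-E1 did so as well (rho 0.39). The part of these library differences in the results was not tested.

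Without ETC-1002, 390 genes were called (1.96% of those tested), 260 lower (1.31%) and 130 higher (0.654%). The median level in 5C of the genes called lower was 10.3 FPKM, against 1.99 FPKM for the genes called higher, and in 5C-E the medians were 3.13 and 5.44 FPKM. Of the lower calls, 81 fell by more than 2 on the log2 scale, and 13 of the higher calls rose by more than 2. Protein-coding genes made up 255 of the 260 and 125 of the 130. The median log2 fold change of all genes was 0.01. The number called depended on the libraries: 201 without 5C1, 196 without 5C2, 393 without 5C-E1 and 138 without 5C-E2, where the lone library of a group is assumed to vary like the other groups. With the spread taken from 5C and 5C-E alone 642 genes were called, and limma on log2(FPKM + 1) called 217.

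**Figure D1:**
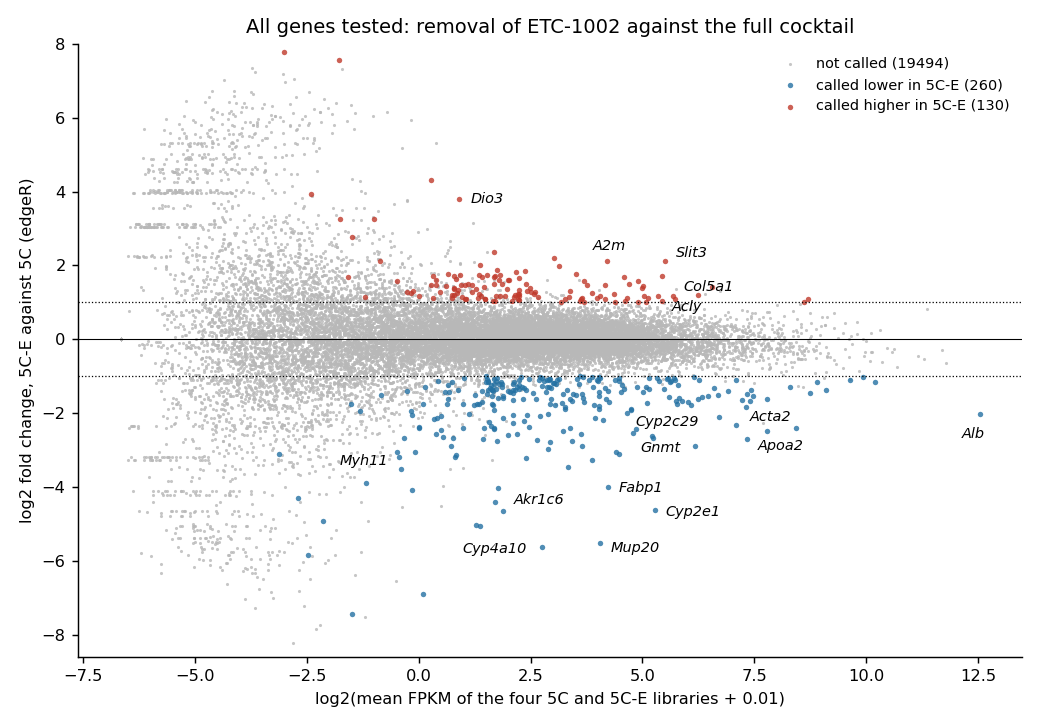
Log2 fold change of 5C-E over 5C for each of the 19884 genes tested (vertical axis) against the mean level of the 4 libraries, as log2(FPKM + 0.01) (horizontal axis). Blue points are the 260 genes called lower and red points the 130 called higher, dotted lines mark log2 fold changes of 1 and -1, and Cyp4a14, whose fitted value lies below the axis, is not drawn. Right of 0 on the horizontal axis the blue points reach further from a fold change of 0 than the red points.

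Alb, the gene of serum albumin and the most abundant RNA in both 5C libraries, fell in 5C-E. It was at 9437 and 9425 FPKM in 5C and 2719 and 2122 FPKM in 5C-E (log2 fold change -2.03 ± 0.20 (SE), edgeR adjusted p = 9.45e-06). DMSO had 9711 and 8604 FPKM, so the 5C-E libraries lay below both groups. In the mouse genome GRCm39 the gene is annotated as ENSMUSG00000029368, chr5:90608647-90624696, plus strand. Ttr, the thyroxine and retinol carrier transthyretin, was at 321 and 330 FPKM in 5C and 122 and 103 FPKM in 5C-E (log2 fold change -1.61 ± 0.19 (SE), edgeR adjusted p = 9.69e-05). Of the 59 genes for plasma proteins that were tested, 27 were lower and 0 higher, against 1.31% lower among all genes. Their median log2 fold change was -1.03. It was -0.95 with a floor of 3 counts per library for genes at or under it in every library of a group. The plasma protease inhibitor A2m, which the list does not hold, was higher (2.12, edgeR adjusted p = 6.08e-06). The count of these genes called lower was 20, 22, 22 and 19 without 5C1, 5C2, 5C-E1 and 5C-E2 in turn. Among them were the vitamin D carrier Gc, at 838 and 729 FPKM in 5C and 328 and 309 FPKM in 5C-E (log2 fold change -1.37 ± 0.18 (SE), edgeR adjusted p = 0.000169), and antithrombin, Serpinc1, at 7.3 and 6.33 FPKM in 5C and 1.3 and 1.1 FPKM in 5C-E (log2 fold change -2.58 ± 0.21 (SE), edgeR adjusted p = 1.88e-06). Transferrin, Trf, was not called at a log2 value of -0.65 (edgeR adjusted p = 0.0207).

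Apolipoproteins, the protein part of lipoproteins, were lower in 9 of 21 genes tested and higher in 0, with a median log2 fold change of -0.99. The number lower was 6, 8, 10 and 4 without 5C1, 5C2, 5C-E1 and 5C-E2 in turn. Apoa2, of high-density lipoprotein, was at 300 and 257 FPKM in 5C and 51.1 and 38.2 FPKM in 5C-E (log2 fold change -2.71 ± 0.26 (SE), edgeR adjusted p = 9.52e-06). Apoc3, which slows the clearance of triglyceride-rich particles, was at 536 and 611 FPKM in 5C and 135 and 93.7 FPKM in 5C-E (log2 fold change -2.40 ± 0.26 (SE), edgeR adjusted p = 4.01e-05). In both genes the 5C-E libraries were far under 5C and close to each other. Apob, the structural protein of very low density lipoprotein, had a log2 value of -0.99 (edgeR adjusted p = 0.0099) and so fell just short of the fold needed. Complement and acute phase genes were lower in 4 of 31, and the count was 3, 2, 4 and 2 without 5C1, 5C2, 5C-E1 and 5C-E2 in turn. C4bp, the C4b-binding protein, was at 8.84 and 9.55 FPKM in 5C and 3.38 and 2.89 FPKM in 5C-E (log2 fold change -1.62 ± 0.19 (SE), edgeR adjusted p = 6.83e-05). Outside that list Hc, complement C5, was at 7.28 and 5.42 FPKM in 5C and 3.49 and 2.68 FPKM in 5C-E (log2 fold change -1.11 ± 0.23 (SE), edgeR adjusted p = 0.0107), and its call was lost without 5C1 and without 5C-E2, where it stood at -0.93 (edgeR adjusted p = 0.279). C3, the central complement component, was not called at 0.14 (edgeR adjusted p = 0.753).

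**Figure D2:**
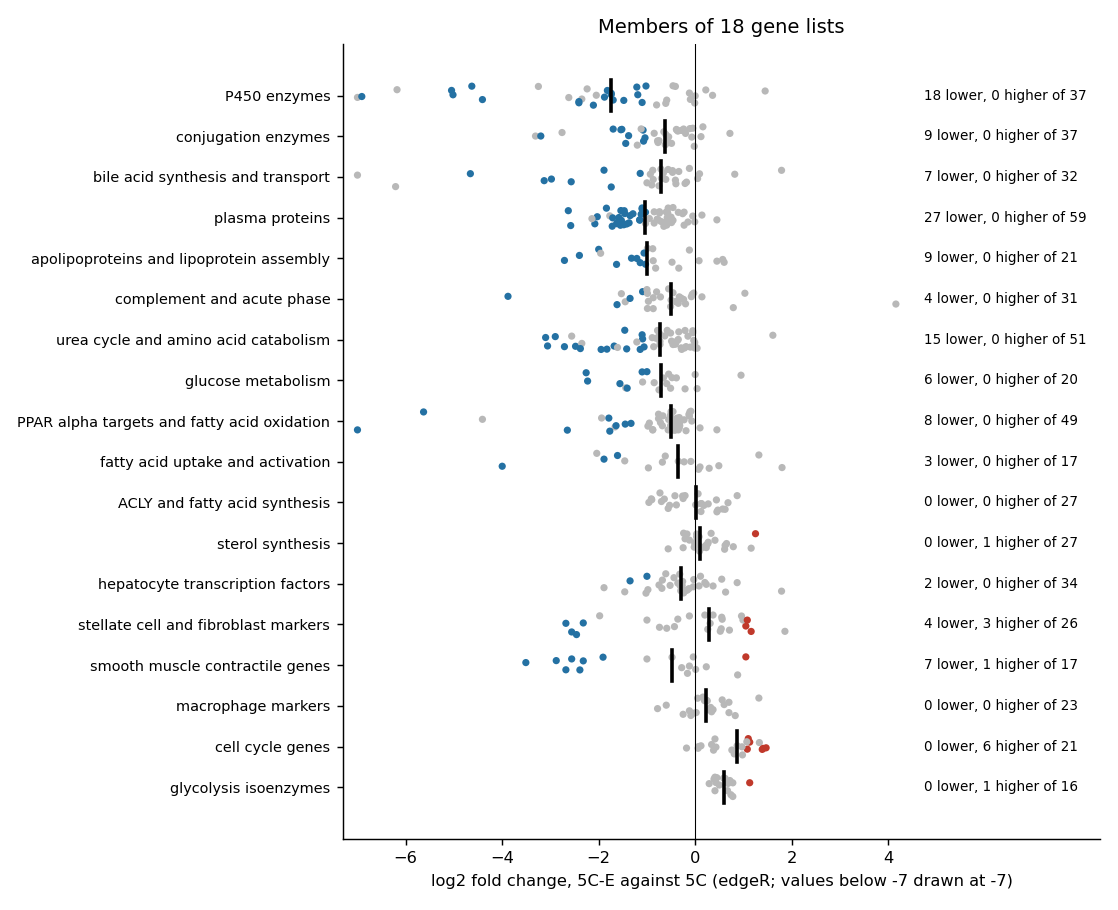
Log2 fold change of 5C-E over 5C (horizontal axis) for every tested gene of 18 gene lists (vertical axis). Each point is a gene, blue where called lower, red where called higher and grey otherwise, a black bar is the list's median, and values below -7 are drawn at -7. P450 enzymes, plasma proteins and apolipoproteins hold many blue points and no red ones, and cell cycle genes hold 6 red points and no blue one.

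Cytochrome P450 enzymes, which oxidise drugs, steroids and fatty acids, included the steepest decreases. Of 37 tested from a list of enzymes of drug, steroid and fatty acid metabolism and their redox partners, 18 were called lower and 0 higher. The median was -1.74, or -1.70 with the same floor of 3 counts per library. Outside that list Cyp26b1, the P450 enzyme that breaks down retinoic acid, was called higher (2.36, edgeR adjusted p = 0.00556, lost without 5C1 and without 5C-E2). The number of listed enzymes called lower was 14, 13, 17 and 12 without 5C1, 5C2, 5C-E1 and 5C-E2 in turn. Cyp2e1, the ethanol and CCl4 oxidising enzyme, was at 75.5 and 73.1 FPKM in 5C and 4.39 and 1.87 FPKM in 5C-E (log2 fold change -4.63 ± 0.35 (SE), edgeR adjusted p = 1.44e-06), against 108 and 112 FPKM in DMSO (ENSMUSG00000025479, chr7:140343652-140355167, plus strand). Cyp1a2, an enzyme of caffeine oxidation, was at 5.48 and 5.26 FPKM in 5C and 1.02 and 1.1 FPKM in 5C-E (log2 fold change -2.41 ± 0.33 (SE), edgeR adjusted p = 0.000274). In both genes each 5C-E library lay far below each 5C library. The Cyp2c family, 13 genes tested and listed after values had been seen, was lower in 8. Cyp2c29 was at 170 and 165 FPKM in 5C and 50.8 and 30.5 FPKM in 5C-E (log2 fold change -2.11 ± 0.25 (SE), edgeR adjusted p = 8.68e-05) while DMSO held only 1.67 and 1.14 FPKM, so 5C-E kept a level between the 2 groups. Cyp2c54 was counted 100 and 140 times in 5C and 0 and 2 times in 5C-E.

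Cyp2b10 and Cyp3a11, P450 enzymes known as targets of the xenobiotic receptors CAR and PXR, also lay between the groups. Cyp2b10 was at 88.3 and 78 FPKM in 5C and 30.7 and 21.6 FPKM in 5C-E (log2 fold change -1.74 ± 0.22 (SE), edgeR adjusted p = 0.000123). Cyp3a11 was at 173 and 191 FPKM in 5C and 98.8 and 79.9 FPKM in 5C-E (log2 fold change -1.10 ± 0.25 (SE), edgeR adjusted p = 0.0245), and its DMSO libraries were at 0.708 and 0.542 FPKM. The Cyp3a11 call was lost without any 1 of the 4 libraries (edgeR adjusted p 0.0764 to 0.406) and with an offset for length and GC content (-0.91, edgeR adjusted p = 0.0283). Of the 5 xenobiotic receptor genes tested, edgeR, DESeq2 and limma called 0 each and 0 had an unadjusted p below 0.05, with a median log2 fold change of -0.13.

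Conjugation enzymes, which add glucuronate, sulphate, glutathione or other groups, were lower in 9 of 37 and higher in 0. That count was 4, 4, 7 and 1 without 5C1, 5C2, 5C-E1 and 5C-E2 in turn, while the median log2 fold change of the list was -0.62 with all libraries and -0.49 without 5C-E2. Ugt2b36, a glucuronosyltransferase, was called in each of those fits and was at 15.7 and 17.8 FPKM in 5C and 6.33 and 5.9 FPKM in 5C-E (log2 fold change -1.52 ± 0.22 (SE), edgeR adjusted p = 0.000575). Akr1c6, a hydroxysteroid dehydrogenase, was at 6.96 and 7.22 FPKM in 5C and 0.297 and 0.286 FPKM in 5C-E (log2 fold change -4.66 ± 0.36 (SE), edgeR adjusted p = 1.44e-06). Mup20, a major urinary protein that carries pheromones, was at 26.4 and 38.1 FPKM in 5C and 1.12 and 0.33 FPKM in 5C-E (log2 fold change -5.52 ± 0.50 (SE), edgeR adjusted p = 5.41e-06). Akr1c6 in DMSO stood at 7.42 and 8.95 FPKM, near 5C, whereas Mup20 in DMSO stood at 2.65 and 3.01 FPKM, nearer to 5C-E. Members of the Cyp2c, Cyp2d, Cyp4a, Mup, Ugt and carboxylesterase families have near-identical copies between which reads may have been split or dropped, so the values of single members are uncertain.

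Bile acid and transport genes were lower in 7 of 32 and higher in 0, and the count was 6, 7, 6 and 5 without 5C1, 5C2, 5C-E1 and 5C-E2 in turn. Slco1b2, an importer of organic anions, was at 14.3 and 11.9 FPKM in 5C and 2.18 and 1.29 FPKM in 5C-E (log2 fold change -2.98 ± 0.40 (SE), edgeR adjusted p = 0.000231). Slc27a5, the bile acid CoA ligase, was at 15 and 15 FPKM in 5C and 4.1 and 4.42 FPKM in 5C-E (log2 fold change -1.89 ± 0.23 (SE), edgeR adjusted p = 0.000123). Both genes were lower with each library left out. Slc10a1, the sodium-dependent bile acid importer, was at 3.21 and 3.14 FPKM in 5C and 0.424 and 0.334 FPKM in 5C-E (log2 fold change -3.13 ± 0.56 (SE), edgeR adjusted p = 0.00395), and without 5C-E2 it stood at -2.97 (edgeR adjusted p = 0.115). Cyp7a1, the rate-limiting enzyme of bile acid synthesis, was counted 36 and 35 times in 5C and 0 times in both 5C-E libraries, and was not called.

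**Figure D3:**
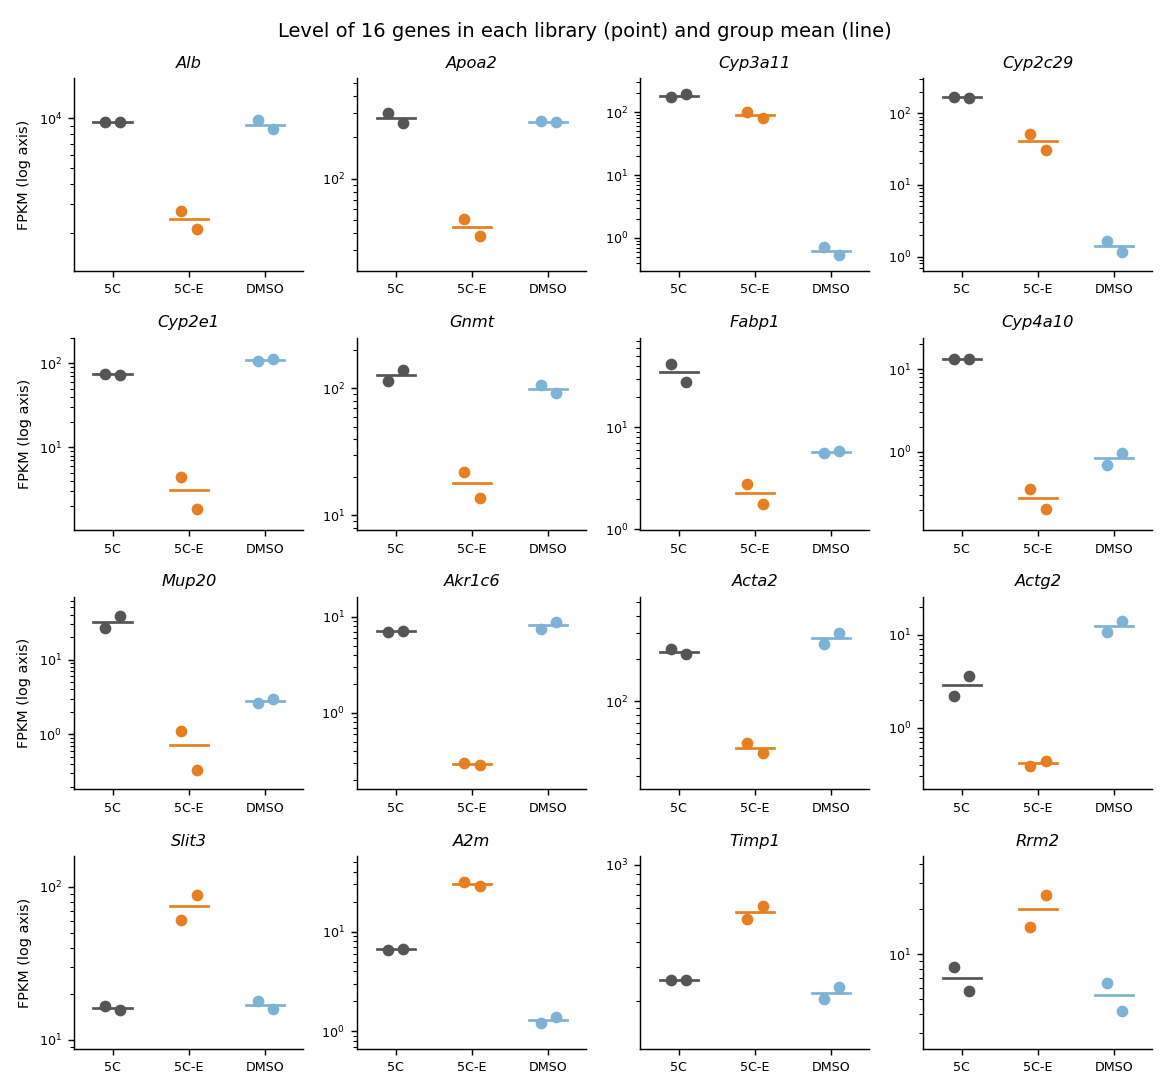
FPKM of 16 genes (panels, logarithmic vertical axes) in the libraries of 5C, 5C-E and DMSO (horizontal axis). Points are libraries and short lines are means of 2 libraries. From Alb to Actg2 the 5C-E points lie below the 5C points, and from Slit3 to Rrm2 they lie above them.

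The lists of P450, conjugation, transport, plasma protein, complement, apolipoprotein, PPAR alpha, glucose and amino acid genes held 335 tested genes together, of which none was called higher by edgeR, DESeq2 or limma. At an unadjusted p below 0.05, 208 of the 335 were lower (62.1%) and 6 higher (1.79%), where 6.83% and 7.72% of all genes tested were. The lists of hepatocyte transcription factors and xenobiotic receptors were left out of this pool. At the same unadjusted p, 11 of 34 transcription factor genes were lower and 1 higher, and of 5 receptor genes 0 were lower and 0 higher.

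In the breakdown of amino acids, 15 of 51 genes were lower and 0 higher, with a median log2 fold change of -0.73. The number lower was 10, 9, 11 and 8 without 5C1, 5C2, 5C-E1 and 5C-E2 in turn. Gnmt, which uses up S-adenosylmethionine by methylating glycine, was at 114 and 139 FPKM in 5C and 21.9 and 13.8 FPKM in 5C-E (log2 fold change -2.90 ± 0.25 (SE), edgeR adjusted p = 3.50e-06). Bhmt, which remethylates homocysteine, was at 40.3 and 39.4 FPKM in 5C and 6.27 and 3.45 FPKM in 5C-E (log2 fold change -3.10 ± 0.25 (SE), edgeR adjusted p = 1.88e-06). Both are enzymes of methionine metabolism, and neither group overlapped the other. Hpd, of tyrosine breakdown, was at 40.6 and 34.9 FPKM in 5C and 6.33 and 3.11 FPKM in 5C-E (log2 fold change -3.06 ± 0.30 (SE), edgeR adjusted p = 1.01e-05), and Tdo2, of tryptophan breakdown, was at 16.5 and 14.8 FPKM in 5C and 3.58 and 2.29 FPKM in 5C-E (log2 fold change -2.48 ± 0.26 (SE), edgeR adjusted p = 1.87e-05). Glucose metabolism genes were lower in 6 of 20 and higher in 0, a count of 4, 5, 6 and 3 without 5C1, 5C2, 5C-E1 and 5C-E2 in turn. Those that stayed called in each of these fits included the liver glycogen synthase Gys2, at 4.35 and 5.33 FPKM in 5C and 1.31 and 0.853 FPKM in 5C-E (log2 fold change -2.23 ± 0.34 (SE), edgeR adjusted p = 0.000839), and the gluconeogenic enzyme Fbp1, at 73.2 and 69.9 FPKM in 5C and 26.1 and 25 FPKM in 5C-E (log2 fold change -1.56 ± 0.17 (SE), edgeR adjusted p = 2.62e-05).

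Genes of fatty acid handling held some of the steepest changes. Cyp4a10 and Cyp4a14, fatty acid omega-hydroxylases and classical targets of the nuclear receptor PPAR alpha, were close to absent in 5C-E. Cyp4a10 was at 13.1 and 13.3 FPKM in 5C and 0.351 and 0.203 FPKM in 5C-E (log2 fold change -5.63 ± 0.51 (SE), edgeR adjusted p = 5.39e-06; ENSMUSG00000066072, chr4:115375461-115390849, plus strand). Cyp4a14 was at 11.2 and 10.1 FPKM in 5C and at 0 FPKM in both 5C-E libraries, at least 318-fold lower when the 5C-E libraries are set to a floor of 3 counts each (edgeR adjusted p = 1.62e-07). DMSO held 0.7 and 0.973 FPKM of Cyp4a10 and 0.378 and 0.222 FPKM of Cyp4a14, between 5C-E and 5C. Fabp1, the liver fatty acid binding protein, was at 42.2 and 28 FPKM in 5C and 2.78 and 1.77 FPKM in 5C-E (log2 fold change -4.00 ± 0.32 (SE), edgeR adjusted p = 2.00e-06), against 5.63 and 5.92 FPKM in DMSO. Plin5, a lipid droplet coat protein, was at 12.6 and 12.6 FPKM in 5C and 3.53 and 4.27 FPKM in 5C-E (log2 fold change -1.77 ± 0.23 (SE), edgeR adjusted p = 0.000168). The 49 PPAR alpha targets and fatty acid oxidation genes tested had 8 lower and 0 higher, with a median of -0.51, and the number lower was 6, 6, 8 and 5 without 5C1, 5C2, 5C-E1 and 5C-E2 in turn. Other well-known targets were not called: Cpt1a, the carnitine palmitoyltransferase that admits fatty acids to mitochondria, had 0.10 (edgeR adjusted p = 0.877), and Pdk4, which restrains pyruvate oxidation, had -0.95 (edgeR adjusted p = 0.104).

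The genes of the compound's own pathway moved little or in mixed directions. Acly, its target, was at 29.2 and 30.4 FPKM in 5C and 43.1 and 50.1 FPKM in 5C-E and was not called (log2 fold change 0.57 ± 0.21 (SE), edgeR adjusted p = 0.198). Slc27a2, the synthetase that activates it, was lower, at 17 and 13.8 FPKM in 5C and 6.51 and 4.08 FPKM in 5C-E (log2 fold change -1.61 ± 0.25 (SE), edgeR adjusted p = 0.000943). Both Acly libraries of 5C-E lay above 5C, and both Slc27a2 libraries lay below it. Of 27 genes of ACLY and fatty acid synthesis edgeR called 0, as did DESeq2 and limma, 5 higher and 7 lower had an unadjusted p below 0.05, with a median log2 fold change of 0.01. Acss2, which makes acetyl-CoA from acetate, was at -0.96 (edgeR adjusted p = 0.00451), and it passed the call without 5C2 (-1.02), without 5C-E2 (-1.09) and with the offset for length and GC content (-1.04). That offset gave 2 lower calls in the list. Sterol synthesis had 1 gene higher and 0 lower of 27 tested, with a median of 0.09, and 0 higher with the offset for length and GC content. Srebf2, the factor that drives this pathway, was at 0.79 (edgeR adjusted p = 0.0146). Among 12 genes for AMPK subunits and upstream kinases edgeR called 0, DESeq2 called 1 lower, and 1 higher and 2 lower had an unadjusted p below 0.05. The catalytic subunit genes had -0.15 for Prkaa1 (edgeR adjusted p = 0.841) and -1.11 for Prkaa2 (edgeR adjusted p = 0.0847). RNA levels do not report AMPK activity.

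Genes for hepatocyte transcription factors were mostly not called. Of 34 tested, edgeR called 2 lower, Prox1 and Hlf, and 0 higher, DESeq2 called 3 lower and limma 0, with a median of -0.29. At an unadjusted p below 0.05, 11 were lower (32.4%, against 6.83% of all genes tested) and 1 higher. The median was -0.10 without 5C-E1, where 1 gene was lower and 1 higher, and -0.48 with the offset for length and GC content, where 3 were lower. Hnf4a, the nuclear receptor that controls much of the hepatocyte programme, was at 21.5 and 18.8 FPKM in 5C and 16.7 and 17.3 FPKM in 5C-E (log2 fold change -0.31 ± 0.17 (SE), edgeR adjusted p = 0.437). Foxa3, of the forkhead factors, had a log2 value of -1.02 (edgeR adjusted p = 0.0653). Prox1, which lay at the fold threshold, kept its call in 1 of 13 alternatives, and was lost without any 1 of the 4 libraries (edgeR adjusted p 0.104 to 0.372) and by DESeq2, and that of Hlf was lost without 5C2 (-1.24, edgeR adjusted p = 0.101) and without 5C-E2 (-1.05, edgeR adjusted p = 0.225).

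Promoter sequences of RefSeq (assembly GRCm38.p6, placed on GRCm39 by exact match) were searched for 2 motifs of liver factors in a window from 250 bases before to 50 bases after the transcription start. For the binding site of HNF1, GTTAAT and ATTAAC with any 1 base between them and at most 1 mismatch, the window of 67 of 27018 genes (0.248%) held a match. Among the genes tested 24 of 13103 did (0.183%), as did 6 of the 189 lower genes with a promoter in the table (3.17%) and 0 of the 93 higher genes. For the direct repeat bound by HNF4A and by PPAR with RXR, 2 copies of AGGTCA with any 1 base between them and at most 2 mismatches, the shares were 4.4% of all genes, 3.82% of the genes tested, 17 of 189 lower genes (8.99%) and 2 of 93 higher genes (2.15%). Both strands were searched, and a match is a description of letters and not a shown binding site. The 150 bases before the start of the 5 lower genes below are printed because they carry the HNF1 letters, which are in capitals. They belong to the vitamin D carrier Gc, the vitamin E binding plasma protein Afm, complement C5 (Hc), the C4b-binding protein C4bp and the sulphotransferase Sult1d1, each 5′ to 3′ on the gene's strand and each with 1 mismatch. The sixth, AI182371 (log2 fold change -1.30), held a match with 0 mismatches 53 bases before a start and is not printed.
Gc, chr5:89605758-89605907, minus strand: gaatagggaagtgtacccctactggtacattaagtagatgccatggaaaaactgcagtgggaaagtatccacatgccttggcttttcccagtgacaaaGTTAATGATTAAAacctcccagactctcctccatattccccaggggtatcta
Afm, chr5:90666658-90666807, plus strand: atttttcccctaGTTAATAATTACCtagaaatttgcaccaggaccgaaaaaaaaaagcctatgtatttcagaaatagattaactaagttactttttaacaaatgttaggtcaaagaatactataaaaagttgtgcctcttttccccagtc
Hc, chr2:34951425-34951574, minus strand: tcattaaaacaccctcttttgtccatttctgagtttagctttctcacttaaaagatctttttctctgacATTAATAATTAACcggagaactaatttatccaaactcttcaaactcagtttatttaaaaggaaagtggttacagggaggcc
C4bp, chr1:130589356-130589505, minus strand: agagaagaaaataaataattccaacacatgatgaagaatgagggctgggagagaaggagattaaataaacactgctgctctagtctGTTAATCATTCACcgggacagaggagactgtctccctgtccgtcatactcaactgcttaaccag
Sult1d1, chr5:87716866-87717015, minus strand: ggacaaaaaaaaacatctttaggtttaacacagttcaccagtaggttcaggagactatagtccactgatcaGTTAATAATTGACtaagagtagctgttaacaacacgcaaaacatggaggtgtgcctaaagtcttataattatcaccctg

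The 4 lower genes that follow are printed for the direct repeat, again in capitals, in the same 150 bases. Fabp1 and Apoa2 bind or carry lipid, Bhmt is the homocysteine methyltransferase, whose window holds 2 matches, and Cyp2d9 is a P450 enzyme.
Fabp1, chr6:71176713-71176862, plus strand: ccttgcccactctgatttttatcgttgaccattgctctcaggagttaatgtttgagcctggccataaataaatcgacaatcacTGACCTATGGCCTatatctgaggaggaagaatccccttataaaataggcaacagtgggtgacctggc
Apoa2, chr1:171052473-171052622, plus strand: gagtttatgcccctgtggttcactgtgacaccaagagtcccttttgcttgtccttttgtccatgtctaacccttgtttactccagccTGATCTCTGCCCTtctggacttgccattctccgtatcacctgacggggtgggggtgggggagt
Bhmt, chr13:93774267-93774416, minus strand: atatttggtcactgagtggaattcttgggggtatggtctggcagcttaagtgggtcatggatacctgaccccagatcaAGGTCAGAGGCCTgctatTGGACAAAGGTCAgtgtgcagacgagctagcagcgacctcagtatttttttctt
Cyp2d9, chr15:82336428-82336577, plus strand: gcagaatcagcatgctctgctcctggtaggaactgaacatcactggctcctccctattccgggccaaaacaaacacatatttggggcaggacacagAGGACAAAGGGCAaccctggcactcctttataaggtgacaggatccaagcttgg

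Among these genes the decreases were of unlike size. Fabp1 had a log2 fold change of -4.00, Bhmt -3.10, Apoa2 -2.71, Afm -2.08, Cyp2d9 -1.82, C4bp -1.62, Sult1d1 -1.54, Gc -1.37 and Hc -1.11. Without 5C-E2 the calls of Hc (-0.93, edgeR adjusted p = 0.279), Afm (-1.75, edgeR adjusted p = 0.0952) and Sult1d1 (-1.3, edgeR adjusted p = 0.0715) were lost, and those of Hc (-0.90, edgeR adjusted p = 0.194) and Afm (-1.67, edgeR adjusted p = 0.0626) were lost without 5C1 too.

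Some contractile genes of smooth muscle and myofibroblasts were lower in 5C-E. Acta2, smooth muscle actin and the usual marker of activated stellate cells, was at 233 and 215 FPKM in 5C and 50.7 and 43.3 FPKM in 5C-E (log2 fold change -2.32 ± 0.21 (SE), edgeR adjusted p = 6.08e-06), while DMSO held 255 and 300 FPKM (ENSMUSG00000035783, chr19:34217737-34232990, minus strand). Actg2, the other smooth muscle actin, was at 2.2 and 3.58 FPKM in 5C and 0.388 and 0.433 FPKM in 5C-E (log2 fold change -2.88 ± 0.44 (SE), edgeR adjusted p = 0.000929), and Myh11, the smooth muscle myosin heavy chain, was at 1.27 and 1.47 FPKM in 5C and 0.184 and 0.0645 FPKM in 5C-E (log2 fold change -3.51 ± 0.41 (SE), edgeR adjusted p = 7.60e-05). Acta2 was the abundant one of the 3. In DMSO Actg2 was at 10.8 and 14.1 FPKM and Myh11 at 4.63 and 4.96 FPKM, both above 5C. Of 17 contractile genes, a list drawn up after values had been seen, 7 were lower and 1 higher. Without 5C-E2 these were 5 lower and 0 higher. The intermediate filament gene Des was the 1 that rose, at 15.5 and 15.4 FPKM in 5C and 29.8 and 37.5 FPKM in 5C-E (log2 fold change 1.05 ± 0.23 (SE), edgeR adjusted p = 0.0151), and its call was lost without 5C1, 5C2 or 5C-E2 (edgeR adjusted p 0.137 to 0.279). Itga8, an integrin of mesenchymal cells on the contractile list, was at 4.5 and 4.7 FPKM in 5C and 1.1 and 0.731 FPKM in 5C-E (log2 fold change -2.39 ± 0.30 (SE), edgeR adjusted p = 0.000136). Lmod1, an actin nucleator of muscle, was at 4.69 and 5.33 FPKM in 5C and 1.52 and 1.28 FPKM in 5C-E (log2 fold change -1.91 ± 0.25 (SE), edgeR adjusted p = 0.000233). Srf, the factor that drives many contractile genes, was not called at 0.01 (edgeR adjusted p = 1).

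Stellate cell and fibroblast markers, 26 tested, had 4 lower and 3 higher, with a median of 0.28 and a summed level of 4312 and 4489 FPKM in 5C, 5389 and 5636 FPKM in 5C-E and 3884 and 3968 FPKM in DMSO. Of the 4 lower, Acta2, Tagln and Cnn1 are contractile genes as well, and so is Des among the 3 higher. The number lower was 4, 3, 4 and 2 without 5C1, 5C2, 5C-E1 and 5C-E2 in turn, the number higher was 1, 1, 5 and 0 in the same fits, and there were 5 lower and 0 higher with the offset for length and GC content. Reln, the secreted glycoprotein reelin, was lower at 2.47 and 2.26 FPKM in 5C and 0.516 and 0.388 FPKM in 5C-E (log2 fold change -2.46 ± 0.26 (SE), edgeR adjusted p = 2.19e-05). Timp1, an inhibitor of matrix proteases, was higher at 257 and 257 FPKM in 5C and 527 and 614 FPKM in 5C-E (log2 fold change 1.08 ± 0.22 (SE), edgeR adjusted p = 0.0117), and its call was lost without 5C1, 5C2 or 5C-E2, where it was 0.96 (edgeR adjusted p = 0.19). Col5a1, a fibrillar collagen chain, was higher at 31.2 and 29.8 FPKM in 5C and 62.6 and 80.5 FPKM in 5C-E (log2 fold change 1.16 ± 0.17 (SE), edgeR adjusted p = 0.000608), and without 5C-E2 it was 0.97 (edgeR adjusted p = 0.0273). Col1a1 and Col3a1, the main fibrillar collagens, were under the fold needed with 0.71 (edgeR adjusted p = 0.0411) and 0.96 (edgeR adjusted p = 0.00125). Pdgfra, a receptor of fibroblasts, had -0.12 (edgeR adjusted p = 0.871). The part of a change in the number of mesenchymal cells in these values was not tested.

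**Figure D4:**
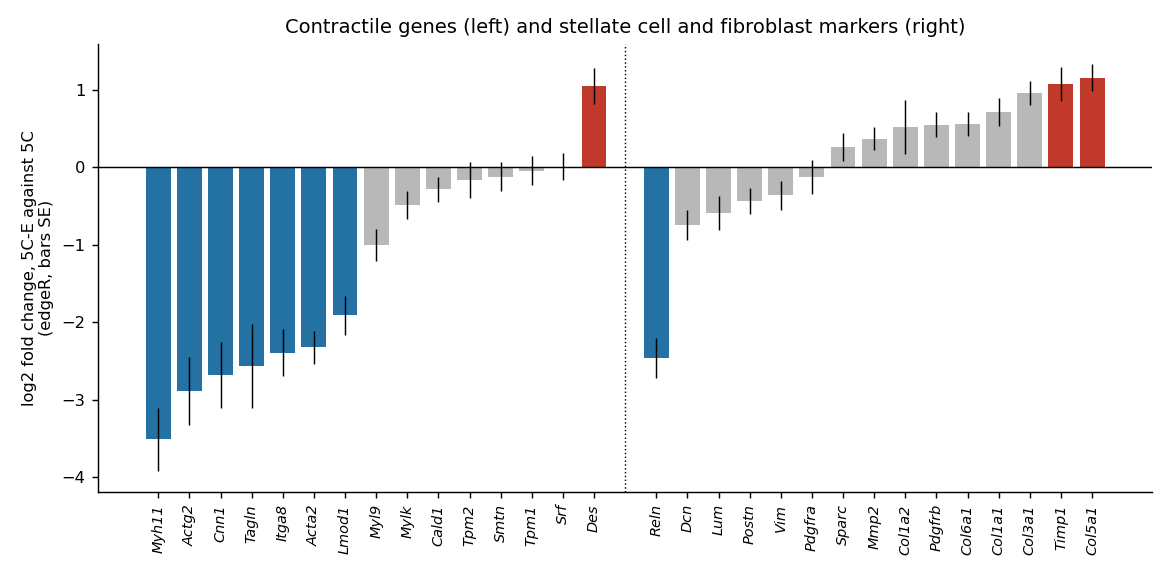
Log2 fold change of 5C-E over 5C (vertical axis) for contractile genes on the left and stellate cell and fibroblast markers on the right (horizontal axis). Bars are the fitted values with lines of 1 SE, blue where called lower, red where called higher and grey where not called. Contractile genes such as Myh11 and Acta2 lie below 0, and Timp1, Col5a1 and Des lie above it.

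Among the 130 genes called higher, Slit3, a secreted guidance protein of mesenchymal cells, was at 16.6 and 15.7 FPKM in 5C and 61.2 and 87.9 FPKM in 5C-E (log2 fold change 2.13 ± 0.19 (SE), edgeR adjusted p = 5.39e-06), against 17.8 and 15.8 FPKM in DMSO (ENSMUSG00000056427, chr11:35011789-35602786, plus strand). A2m, a protease inhibitor of plasma, was at 6.64 and 6.68 FPKM in 5C and 31.8 and 29.1 FPKM in 5C-E (log2 fold change 2.12 ± 0.20 (SE), edgeR adjusted p = 6.08e-06). Both rises, and those of the phosphatase Alpl (1.98), the fibroblast growth factor family gene Fgf11 (1.85) and the carbonic anhydrase Car12 (1.83), were called with each library left out. Those of Dio3, which inactivates thyroid hormone, and Cyp26b1, which breaks down retinoic acid, were not: Dio3 went from 3.79 to 2.37 (edgeR adjusted p = 0.488) and Cyp26b1 from 2.36 to 1.92 (edgeR adjusted p = 0.131) without 5C-E2, Dio3 was lost as well without 5C2 and Cyp26b1 without 5C1. Angpt2, a ligand of vessels, was listed at 0 in both 5C libraries and at 0.283 and 0.174 FPKM in 5C-E.

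Cell cycle genes were higher in 6 of 21 and lower in 0, against 0.654% higher among all genes, with a median of 0.87. The count was 3, 1, 7 and 1 without 5C1, 5C2, 5C-E1 and 5C-E2 in turn. Rrm2, the ribonucleotide reductase subunit made in S phase, was at 8.22 and 5.72 FPKM in 5C and 15.3 and 25.1 FPKM in 5C-E (log2 fold change 1.47 ± 0.26 (SE), edgeR adjusted p = 0.00302), and its call was lost without 5C2 (1.28, edgeR adjusted p = 0.0905) and without 5C-E2 (1.07, edgeR adjusted p = 0.123). Mki67, the proliferation marker Ki-67, was at 1.14 and 0.699 FPKM in 5C and 2.64 and 2.41 FPKM in 5C-E (log2 fold change 1.39 ± 0.24 (SE), edgeR adjusted p = 0.00251). The Mki67 call was lost without 5C2 (1.12, edgeR adjusted p = 0.0793). Both genes were detected in every library, at a higher level in each 5C-E library than in either 5C library. Glycolysis isoenzymes had 1 call, the lactate exporter Slc16a3, with all 16 tested genes above 0 (50.3% of all genes tested were) and a median of 0.60, which was 0.38 without 5C-E2 and 0.36 with the offset. The Slc16a3 call was lost without 5C1, 5C2 or 5C-E2 and with the offset for length and GC content (0.78 to 1.30). A list of 25 hypoxia response genes, drawn up after values had been seen, had 5 higher and 0 lower, and the number higher was 3, 2, 6 and 2 without 5C1, 5C2, 5C-E1 and 5C-E2 in turn. Ndufa4l2, a mitochondrial protein induced by low oxygen, was its most abundant call at 50.1 and 48.2 FPKM in 5C and 120 and 155 FPKM in 5C-E (log2 fold change 1.41 ± 0.27 (SE), edgeR adjusted p = 0.00656), and it was lost without 5C1, 5C2 or 5C-E2 (edgeR adjusted p 0.0905 to 0.133).

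Markers of other liver cells were counted as well. Of 23 macrophage markers edgeR called 0, as did DESeq2 and limma, and 4 higher and 1 lower had an unadjusted p below 0.05, with summed levels of 798 and 899 FPKM in 5C, 1041 and 1147 FPKM in 5C-E, and 6658 and 6751 FPKM in DMSO. Outside that list Pf4 and Siglec1, genes of resident macrophages picked after their values were seen, were higher, at 1.70 (edgeR adjusted p = 0.00492) and 1.60 (edgeR adjusted p = 0.00172), both calls were lost without 5C1 (edgeR adjusted p = 0.0926 and 0.0634), and that of Pf4 without 5C2 (0.0608). C1qa, a complement chain made by macrophages, was at 58.7 and 58.2 FPKM in 5C and 117 and 190 FPKM in 5C-E and was not called (1.32, edgeR adjusted p = 0.0557), though it passed in 5 of 13 alternatives, among them the fit without 5C-E1 (1.66, edgeR adjusted p = 0.0425) and that with the offset for length and GC content (1.01, edgeR adjusted p = 0.0207). The macrophage list had 1 gene higher in each of those 2 fits. Endothelial markers were higher in 2 of 16, Kdr at 10.4 and 9.08 FPKM in 5C and 23 and 21.2 FPKM in 5C-E (log2 fold change 1.11 ± 0.22 (SE), edgeR adjusted p = 0.00987) and Fcgr2b (1.08), with summed levels of 29.4 and 30.2 FPKM in 5C, 55.5 and 57.3 FPKM in 5C-E, and 185 and 199 FPKM in DMSO. At an unadjusted p below 0.05, 7 of the 16 were higher and 1 lower, while DESeq2 called 2 higher and limma 0. Kdr was lost without any 1 of the 4 libraries and Fcgr2b without 5C1, and the defining genes Pecam1 and Cdh5 were at 0 in both 5C libraries. Cholangiocyte markers had 0 calls among 15 by edgeR, DESeq2 or limma, with 3 lower at an unadjusted p below 0.05, and summed to 2177 and 1817 FPKM in 5C and 1653 and 1745 FPKM in 5C-E. Of the lymphocyte and neutrophil markers 4 were tested and edgeR, DESeq2 and limma called 0, with 3 above 0 and 1 higher at an unadjusted p below 0.05. They summed to 0.944 and 0.563 FPKM in 5C, 3.75 and 1.28 FPKM in 5C-E, and 2.82 and 4.51 FPKM in DMSO, mostly of the neutrophil gene S100a8, while the defining genes Cd3e and Ly6g were at 0 in 5C and 5C-E. The part of these cells in the changes above was not tested.

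Genes of the NRF2 response (19 tested), the ATF4 and unfolded protein response (20), p53 and senescence (19) and the cAMP response (13) had 0 called each by edgeR. At an unadjusted p below 0.05 there were 3 higher and 4 lower of NRF2, 3 higher and 1 lower of ATF4, 0 of p53, and 4 higher and 3 lower of cAMP, DESeq2 called 1 gene higher in the NRF2 list and 1 in the cAMP list, and limma called 0. SRF and YAP targets had 1 lower of 16. Chemokines and cytokines had 1 higher of 28, the alarmin Il33, at 7.78 and 7.56 FPKM in 5C and 12.5 and 21.5 FPKM in 5C-E (log2 fold change 1.08 ± 0.24 (SE), edgeR adjusted p = 0.0207), which stood at 0.64 without 5C-E2 (edgeR adjusted p = 0.609) and was lost without 5C1 or 5C2 too. Of 12 genes encoded in mitochondrial DNA, 1 was lower, mt-Nd6, which was lost without 5C2, 5C-E1 or 5C-E2, and the median was -0.71. All 12 were below 0, 9 of them at an unadjusted p below 0.05, and DESeq2 called 2 lower and limma 0. With the offset for length and GC content the median was -0.39, 0 were called, and mt-Nd6 stood at -0.79 (edgeR adjusted p = 0.137).

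The ETC-1002 removal was last set directly against removals of G (5C-G), C (5C-C) and F (5C-F), 2 libraries each. The removal of S has 1 library and was not compared. Setting 5C-E against these groups called 1851 genes for 5C-G (9.31%), 2718 for 5C-C (13.7%) and 1738 for 5C-F (8.74%). The 3 contrasts share the 5C-E libraries, so they are not independent of each other. The 2 libraries of 5C-G, 5C-C and 5C-F were less alike than those of 5C-E, with chi-square per degree of freedom of 86.6, 75.7 and 62.9. With 1 library of either group left out, the genes called numbered 870 to 3196 for 5C-G (without 5C-G2 and 5C-G1), 1561 to 3856 for 5C-C (without 5C-C2 and 5C-C1) and 1295 to 1934 for 5C-F (without 5C-E1 and 5C-F2). Against 5C-G, 5C-C and 5C-F in turn the log2 differences of Fabp1 were -4.71, -1.89 and -5.16, so it was lower in 5C-E than in each of them (edgeR adjusted p = 1.72e-07, 0.00064 and 9.22e-08). Cyp4a10 was lower in 5C-E than in 5C-G, at -2.58 (edgeR adjusted p = 0.00168), and than in 5C-F, at -6.06 (edgeR adjusted p = 9.38e-07), but its difference from 5C-C was 0.21 (edgeR adjusted p = 0.844) and ran from -0.63 without 5C-C2 to 1.67 without 5C-C1. Alb had -1.04 (edgeR adjusted p = 0.00127) against 5C-G and -2.88 (edgeR adjusted p = 2.40e-07) against 5C-F, and -0.54 (edgeR adjusted p = 0.0416) against 5C-C, which is under the fold needed. The Alb call against 5C-G was lost without 5C-E2 (-0.88) and without 5C-G2 (-0.89). Cyp2e1 was higher in 5C-E than in 5C-C, by 1.34 (edgeR adjusted p = 0.00805), but not called without 5C-E1 (0.60) or 5C-C2 (1.03), and it was lower than in 5C-G and 5C-F.

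Contractile, higher and compound pathway genes were compared in the same way. Acta2 was lower in 5C-E than in 5C-G, at -4.43 (edgeR adjusted p = 5.74e-09), and than in 5C-F, at -1.37 (edgeR adjusted p = 0.000237), and its difference from 5C-C was 0.04 (edgeR adjusted p = 0.919), between -0.16 and 0.29 with 1 library left out. Slit3 was higher than in 5C-G, by 1.74 (edgeR adjusted p = 1.04e-05), and than in 5C-F, by 3.39 (edgeR adjusted p = 4.38e-08), with a difference from 5C-C of 0.36 (edgeR adjusted p = 0.164). Acly stood above the other removals by 0.80, 1.00 and 0.58 in the order 5C-G, 5C-C and 5C-F (edgeR adjusted p = 0.0151, 0.00269 and 0.073). The Acly difference from 5C-C passed the call narrowly and was lost without 5C-C2 (0.72) and without 5C-E2 (0.89), that from 5C-G passed only without 5C-G1 (1.09), and that from 5C-F did not pass. Kdr was higher in 5C-E than in each of them, by 2.12, 1.22 and 2.08 (edgeR adjusted p = 9.79e-06, 0.00105 and 1.19e-05), while the call against 5C-C was lost without 5C-C2 (0.96) and that against 5C without any 1 of the 4 libraries.

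**Figure D5:**
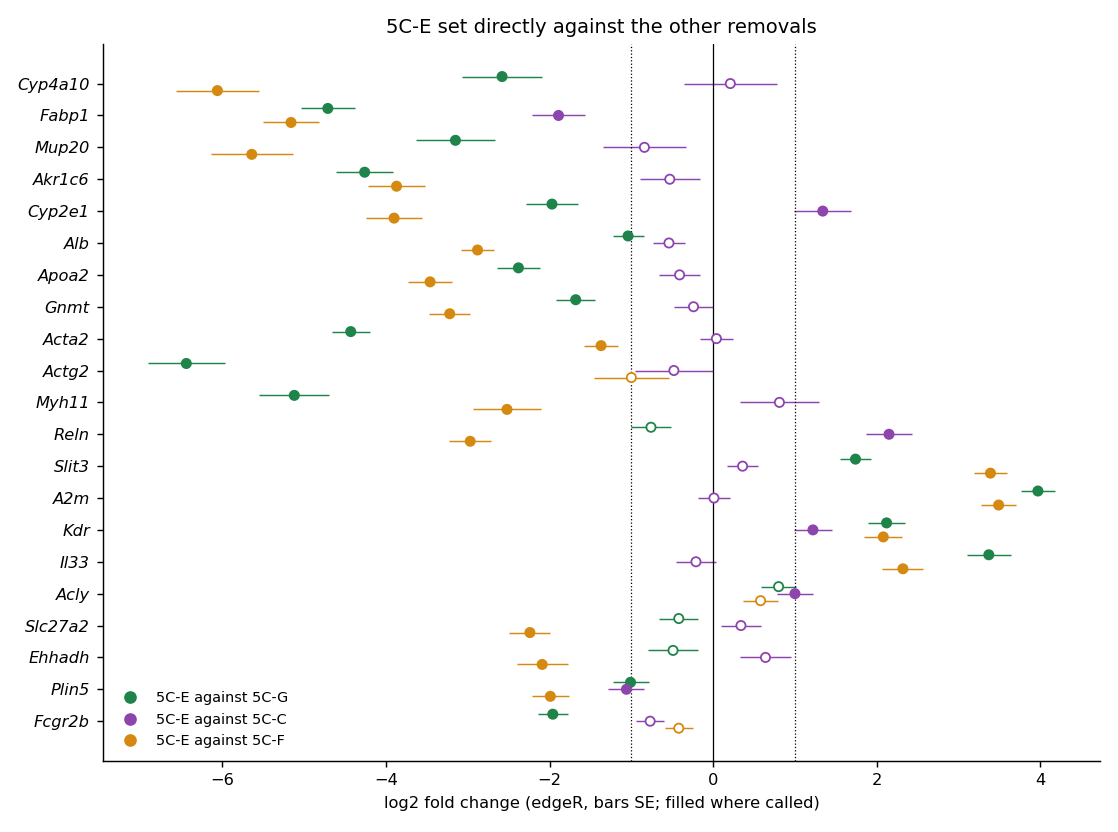
Log2 difference of 5C-E from 5C-G, 5C-C and 5C-F (horizontal axis, 1 colour per group, lines of 1 SE) for 21 genes (vertical axis), with dotted lines at 1 and -1. Filled markers passed the call and open ones did not, and values below 0 mean that the RNA was lower in 5C-E. The 5C-C markers of Cyp4a10, Mup20, Akr1c6, Acta2 and A2m are open and lie between -1 and 1, while Fabp1 is filled for all 3 groups.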

How the data were processed

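Bulk RNA-seq of mouse dHeps was sequenced in pairs on an Illumina NovaSeq and aligned by the authors to GRCm39. They deposited a table of gene counts, made with featureCounts of Subread per the labels, and a table of FPKM values, which are counts per gene length and library size. The versions of the aligner and counter and the use of strand are not given in the sources used here. Samples were grouped by the labels and columns by their names. The 27141 genes were filtered with filterByExpr (minimum count 10), and the deposited counts of the 19884 left were scaled by TMM and fitted with edgeR 4.0.16 (R 4.3.3), quasi-likelihood, as 1 mean per group over all 13 libraries (6 residual degrees of freedom), with Benjamini-Hochberg adjustment over all genes. SEs are the log2 fold change over the root of F. Leaving out libraries, total-count scaling, other filters, an offset for GC content and length, DESeq2 1.42.0 and limma 3.58.1 on log2(FPKM + 1) or log2(FPKM + 0.1) were the alternatives. The fit was tested on simulated data. A floor of 3 counts per library was used for genes at or under it in every library of a group. Coordinates are of GENCODE on GRCm39. Named genes were the 12 largest calls in each direction at a mean of 1 FPKM or more, up to 5 calls per list, pathway genes, and genes added for their role after their values were seen. All members and lists were chosen with earlier results of these data known. Some genes are not reported here.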

Additional observations from a re-analysis of the deposited data

How the results depend on the processing

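The total of 390 calls became 642 with the spread taken from 5C and 5C-E alone, 217 by limma on log2(FPKM + 1), 138 to 393 with 1 library left out, and 877 at an unadjusted p. The 130 higher calls became 234 with no filter on low counts, 261 with the spread from 5C and 5C-E alone, 64 by limma on log2(FPKM + 1), 26 to 166 with 1 library left out, 393 at an unadjusted p, and 234 with no fold threshold or with a log2 fold of 0.5. The 260 lower calls became 153 by limma, 112 to 227 with 1 library left out, and 484 at an unadjusted p. The offset for GC content and length called 303 lower and 95 higher, 321 of them among the 390. It kept 236 of the 260 lower calls and 85 of the 130 higher calls. Median GC content was 47.5% for the lower calls, 53.3% for the higher calls and 49.5% for the genes tested. Total-count scaling called 221 lower and 161 higher, against 66.7% lower in the fit described. The cause of these shifts was not tested.

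Of the 106 called genes that the naming rule picked, not all of them reported here, 57 stayed called in every alternative that tested them (up to 13). Calls lost numbered 27 without 5C1, 28 without 5C2, 9 without 5C-E1, 42 without 5C-E2, 12 with the offset, 21 by limma on log2(FPKM + 1) and 1 by DESeq2. Of 23 picked genes that were not called, 7 passed in at least 1 alternative (Acss2, Apob, C1qa, Col3a1, Foxa3, Myl9 and Prkaa2). Values near 0 changed sign: with the offset Prkaa1 was 0.07 (-0.15 as described), Cpt1a -0.04, C3 -0.08 and Srf -0.35. With 1 library left out Foxa2 ranged from -0.53 to 0.01 (-0.26 as described, above 0 without 5C-E1), Srf from -0.06 to 0.10 (below 0 without 5C1, at -0.02, and without 5C-E2) and Pdgfra from -0.22 to 0.00 (without 5C-E2). The median of the ATF4 list (0.17 as described) was -0.03 with the offset and -0.02 to 0.28 with 1 library left out (lowest without 5C-E2), and that of the cAMP list (-0.12 as described) was 0.01 with at least 10 counts in every library, and -0.19 to 0.21 with 1 library left out (0.06 without 5C1, 0.14 without 5C2, 0.21 without 5C-E2). Against 5C-C, with total-count scaling Gnmt was 0.00 and Il33 0.02, with the offset Gnmt was 0.33 and A2m -0.42, and A2m was -0.01 by DESeq2. With 1 library left out, a choice made after seeing the data, the differences from 5C-C ran from -0.63 to 1.67 for Cyp4a10 and from -0.16 to 0.29 for Acta2. No paired analysis was possible because the labels give 5C and 5C-E no shared replicate numbers. At this depth a count of 0, as of Cyp7a1 in 5C-E, bounds a level only down to the floor of 3 counts per library.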
